A study of Mus musculus with 16 samples.

Results

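The interferon-responsive genes are transcripts that cells make in larger amounts once an interferon has bound its receptor. A list of 37 such genes was matched by symbol to the deposited count table, and all 37 were found among its 24964 genes. Of these, 36 passed the filter on low counts and were tested beside 15385 genes in all. The exception was Ido1, a tryptophan-degrading enzyme, which had 1 to 31 counts per library.

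Bulk RNA was sequenced from biopsies of 4 mm taken at the lesser curvature of the stomach corpus of female mice aged 8 weeks, with 4 libraries in each of 4 groups. WT mice were C57BL/6, and TTP mice were congenic C57BL/6 carrying TTPΔARE, an allele of Zfp36 whose transcript has lost its AU-rich element. Zfp36 encodes tristetraprolin (TTP), a protein that binds AU-rich elements and promotes decay of the transcripts that carry them. In the A groups (WT-A and TTP-A) gastric inflammation was induced by adrenalectomy, the removal of the adrenal glands, the main source of glucocorticoid hormone. The label of the S groups (WT-S and TTP-S) names spasmolytic polypeptide-expressing metaplasia, and does not state what S stands for or whether these mice had an operation, so S is used here only as a group name. Each library holds RNA of the whole biopsy, with no cell type separated, so fewer cells of a type and less RNA per cell cannot be told apart. The labels do not say that replicates are separate animals, and p-values measure only the spread between these libraries.

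Type I interferons signal through the receptor pair Ifnar1 and Ifnar2, and type II interferon (Ifng) through Ifngr1 and Ifngr2. Both pairs act through JAK kinases. Type I signals assemble a complex that includes STAT2 and IRF9 and binds the interferon-stimulated response element (ISRE), while the response to Ifng acts through the gamma-activated site (GAS). The induced genes block viral replication, sense foreign nucleic acid, attack intracellular microbes and prepare peptides for presentation on MHC class I.

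Promoter sequence was read for the members because motifs for both branches could be searched for in it. RefSeq promoter windows (GRCm38.p6, 250 bases before to 50 after each start, 300 bases in all) were found for 29 of the 37 members. The ISRE core, GAAA followed by 2 bases of any kind and GAAA again, searched on both strands, was in the windows of 15 of these 29 members (51.7%), or in 47.1% of member windows beside 3.44% of all 32851 windows. The GAS core TTCNNNGAA, which reads the same way on both strands in its fixed letters, was in the windows of 8 members (27.6%), or in 23.5% of member windows beside 8.30% of all. At least 1 of the motifs was in the windows of 19 members (65.5%). These genes are known interferon targets, so the shares describe the list. A match is not a measured binding site.

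The stretches below hold the matches of 6 members, 1 from each of 6 roles, each member having the smallest p of those in its role with a match. All are written 5′ to 3′ in the direction of the gene, with the motif letters in capitals. Irf1 lies at chr11:53769909-53769947 (+) with a GAS match that starts 90 bases before the gene's start. Psmb8 lies at chr17:34198083-34198121 (+) with a GAS match, and Ifit2 at chr19:34550444-34550476 (+) with another. Ifi35 lies at chr11:101448404-101448436 (+), where the GAS match falls just after the start. Gbp7 at chr3:142530215-142530307 (+) holds 2 GAS matches followed by 1 ISRE match on the opposite strand. Ddx58 at chr4:40239801-40239838 (-) holds 1 ISRE match on the opposite strand, just after the start.
Irf1: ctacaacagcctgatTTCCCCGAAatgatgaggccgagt
Psmb8: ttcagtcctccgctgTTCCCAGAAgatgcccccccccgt
Ifit2: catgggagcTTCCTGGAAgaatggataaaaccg
Ifi35: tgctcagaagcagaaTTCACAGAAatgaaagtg
Gbp7: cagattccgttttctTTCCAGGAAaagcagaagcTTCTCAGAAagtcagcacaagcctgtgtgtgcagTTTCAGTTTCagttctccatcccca
Ddx58: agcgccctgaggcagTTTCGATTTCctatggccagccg

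Of the 4 members with the largest spread between libraries of a group, chosen after their values were seen, 3 had ISRE matches and none of them a GAS match. They are Ifit1 at chr19:34640770-34640828 (+) with 2, Rsad2 at chr12:26456548-26456587 (-) with 1, and Isg15 at chr4:156200860-156200911 (-) with 3 in a row, each overlapping the next. The fourth was Samd9l, whose window held neither motif.
Ifit1: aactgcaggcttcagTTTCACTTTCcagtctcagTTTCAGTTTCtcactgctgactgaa
Rsad2: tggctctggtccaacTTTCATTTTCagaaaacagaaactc
Isg15: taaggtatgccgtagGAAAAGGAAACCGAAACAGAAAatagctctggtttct

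Psmb9 and Tap1, described below with the antigen processing genes, are neighbours that start in opposite directions, and their windows share 275 bases. The 225 bases between the starts, chr17:34187331-34187555, are written here in the direction of Tap1, and neither motif was found in them. That says only that these letters are not in this window.
Tap1: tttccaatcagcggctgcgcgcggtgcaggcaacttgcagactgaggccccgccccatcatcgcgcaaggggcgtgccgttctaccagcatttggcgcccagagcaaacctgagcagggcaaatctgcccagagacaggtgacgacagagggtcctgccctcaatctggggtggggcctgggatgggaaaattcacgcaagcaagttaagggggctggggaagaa

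The libraries held 17453930 to 25849472 counts. Zfp36, the altered gene, was at 122 ± 6.11 CPM (counts relative to the library total, scaled for composition) in TTP-S beside 62.0 ± 4.73 CPM in WT-S, and at 123 ± 9.54 CPM in TTP-A beside 72.0 ± 11.9 CPM in WT-A (SD, n = 4 each). It rose by 0.98 and 0.77 on the log2 scale (adjusted p = 0.00044 and 0.00159, edgeR), and a fit of TTP-A and WT-A alone did not call it (adjusted p = 0.0535). Transcripts of parietal and chief cells, which define the gastric corpus, were abundant in every library, as were those of surface mucous cells. In WT-A against WT-S 4 of 6 parietal and 3 of 5 chief cell markers fell, while 1 chief cell, 4 of 5 smooth muscle, 2 of 6 mucous neck and metaplasia markers and 2 of 10 squamous markers rose, beside 18.8% of all genes called. The 14 libraries called 5 parietal, 4 chief cell and 2 of 4 surface mucous markers lower (the last list had 0 calls in the 16), 4 squamous markers higher, and 0 smooth muscle markers. In TTP-A against TTP-S, beside 2.9% of all genes called, 1 chief cell marker and 1 mucous neck or metaplasia marker rose, 1 surface mucous, 1 adipose and 1 exocrine pancreas marker fell, and 0 parietal, squamous or smooth muscle markers were called. The part of these cells in the results was not tested. The parietal and chief cell lists share the gene Gif, so their counts here and below are not separate. WT-A replicates 3 and 4 stood apart from the other 14 libraries: their deviations from the gene medians followed transcript GC content (Spearman rho 0.712 and 0.738 across 11462 genes, beside at most 0.310 in size elsewhere). The main results that rest on WT-A are therefore also given from the other 14 libraries, where WT-A keeps 2 replicates. In these Zfp36 was 0.95 higher in TTP-A than in WT-A (adjusted p = 0.000139). Forestomach squamous markers, which a biopsy of the lesser curvature can carry, summed to 146 to 1252 CPM in WT-A and 61.0 to 322 CPM in WT-S, and their part in the results was not tested.

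The 11 ligand genes on the list had few or no counts. Ifnb1, Ifna1, Ifna2, Ifna4, Ifna5, Ifnab, Ifnl2 and Ifnl3 had 0 counts in all 16 libraries, and Ifng had 1 count in all, in WT-A replicate 1. The epithelial type I interferons had 7 counts in all (Ifnk) and 2 to 29 counts per library (Ifne), and none of these 11 passed the low-count filter. A count of 0 allows up to 3 counts, which is at most 0.172 CPM in any of these libraries, and covers counting error only. Receptor transcripts were present in every library. Ifngr1, the ligand-binding chain for Ifng, read 107, 109, 91.2 and 105 CPM in WT-S and 88.7, 85.2, 83.6 and 83.3 CPM in WT-A (replicates 1 to 4). In the mutant it read 113, 121, 115 and 120 CPM in TTP-S and 91.1, 99.1, 93.4 and 87.6 CPM in TTP-A. Every A library lay below every S library of its own genotype. Ifngr1 fell by 0.27 in WT and by 0.34 in TTP on the log2 scale (adjusted p = 0.0076 and 0.0094, edgeR quasi-likelihood test with Benjamini-Hochberg adjustment over all genes tested), and a fit of the WT groups alone did not call it (adjusted p = 0.0641). The WT difference in the 14 libraries was -0.24 (adjusted p = 0.0383).

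Adrenalectomy in the wild type was compared first, as WT-A against WT-S. Of the 36 members tested, 6 rose and 1 fell at an adjusted p under 0.05, beside 18.8% of all genes tested (9.8% higher and 8.99% lower), so the number of calls was near the background. Members leaned upward: 31 of 36 had a higher mean in WT-A, and their median log2 difference was 0.34, against 0.0094 over all genes tested. The 6 that rose were all 3 antigen processing members (Psmb9, Tap1, Psmb8), the transcription factor Irf1, the nucleic acid sensor Zbp1 and Ifi35. The 1 that fell was Ifit2. No overlap between the groups was found for 2 members, Psmb9 and Irf1, both higher in WT-A, beside 9.2% of all genes tested. At an unadjusted p under 0.05 there were 11 members, beside 36.5% of all genes. The plot of the members that rose shows these 6 in each library.

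**Figure D1:**
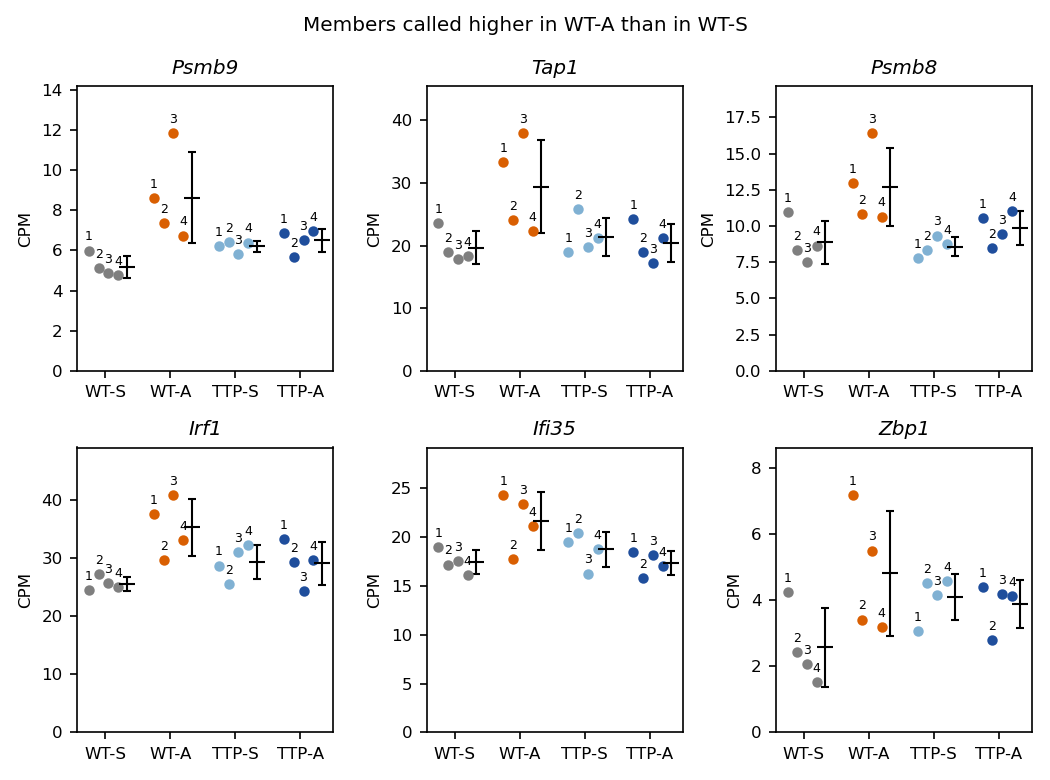
CPM (vertical axis) of the 6 members that rose in WT-A against WT-S, 1 panel per gene, with 1 numbered point per library (4 per group) and the group mean with 1 SD on each side. Psmb9 and Irf1 are the 2 whose WT-A points all lie above all WT-S points, while the other 4 overlap.

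Psmb9 and Psmb8 encode catalytic subunits of the immunoproteasome, which cuts proteins into peptides, and Tap1 encodes a part of the transporter that carries those peptides to MHC class I. The 3 genes lie side by side, with Psmb9 at chr17:34182030-34187330, Tap1 at chr17:34187556-34197225 and Psmb8 at chr17:34198195-34201454. Psmb9 read 5.99, 5.13, 4.89 and 4.76 CPM in WT-S and 8.63, 7.35, 11.8 and 6.74 CPM in WT-A, so the lowest WT-A library exceeded the highest WT-S library. In TTP-S it read 6.20, 6.42, 5.83 and 6.39 CPM and in TTP-A 6.86, 5.65, 6.53 and 6.95 CPM, which overlap. The log2 difference of Psmb9 in WT was 0.74 (SE 0.15, adjusted p = 0.0052, edgeR quasi-likelihood), and in the 14 libraries it was 0.62 (adjusted p = 0.0068). Tap1 read 23.6, 18.9, 17.9 and 18.4 CPM in WT-S and 33.3, 24.1, 37.9 and 22.3 CPM in WT-A. Only WT-S replicate 1 reached into the WT-A range. Tap1 rose by 0.58 (SE 0.16, adjusted p = 0.0240) and by 0.54 in the 14 libraries (adjusted p = 0.0438). Psmb8 read 11.0, 8.36, 7.48 and 8.65 CPM in WT-S and 13.0, 10.8, 16.4 and 10.7 CPM in WT-A, where WT-S replicate 1 again reached the 2 lowest WT-A libraries. Its log2 difference was 0.52 (SE 0.14, adjusted p = 0.0221), and 0.43 in the 14 libraries, where it was not called (adjusted p = 0.0650).

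Irf1 encodes a transcription factor that switches on antigen processing genes, among others. It read 24.5, 27.3, 25.8 and 25.035 CPM in WT-S and 37.6, 29.7, 40.9 and 33.1 CPM in WT-A, without overlap. The rise was 0.46 on the log2 scale (SE 0.11, adjusted p = 0.0098, edgeR) and 0.39 in the 14 libraries (adjusted p = 0.0473). Among the 4 transcription factors, Irf1 was the 1 called. Irf9, the DNA-binding part of the type I complex, differed by 0.37 (adjusted p = 0.0661), Irf7, which drives later interferon production, by 0.37 (adjusted p = 0.327), and Stat2 by 0.25 (adjusted p = 0.210). All 4 had higher means in WT-A.

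Zbp1 senses Z-form nucleic acid and can trigger cell death. It read 4.25, 2.42, 2.07 and 1.54 CPM in WT-S and 7.18, 3.41, 5.50 and 3.17 CPM in WT-A. The highest WT-S library exceeded the 2 lowest WT-A libraries. Its log2 difference was 0.92 (SE 0.30, adjusted p = 0.0432) and 1.05 in the 14 libraries (adjusted p = 0.0597). The other 3 sensors were the RIG-I-like helicases. Ddx58, which is RIG-I itself, differed by 0.38 (adjusted p = 0.143), Dhx58 by 0.63 (adjusted p = 0.135) and Ifih1 by 0.02 (adjusted p = 0.939). Ifi35, a leucine zipper protein induced by interferon, read 19.0, 17.2, 17.6 and 16.1 CPM in WT-S and 24.3, 17.7, 23.4 and 21.1 CPM in WT-A, with WT-A replicate 2 inside the WT-S range. It rose by 0.31 (SE 0.098, adjusted p = 0.0385), and by limma voom with sample weights the value was 0.19 (adjusted p = 0.201). Without WT-A replicates 3 and 4 it was 0.27 (adjusted p = 0.156).

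Ifit2 belongs to the family of RNA-binding proteins with tetratricopeptide repeats that restrain viral translation. It read 5.26, 7.55, 6.34 and 5.32 CPM in WT-S and 5.95, 4.52, 3.51 and 3.13 CPM in WT-A. The 2 lowest values were in WT-A replicates 3 and 4, and WT-A replicate 1 lay inside the WT-S range. Its log2 difference was -0.51 (SE 0.17, adjusted p = 0.0472, edgeR), and -0.23 in the 14 libraries (adjusted p = 0.369). The neighbouring family members differed the other way without being called: Ifit1 by 0.67 (adjusted p = 0.372) and Ifit3 by 0.30 (adjusted p = 0.351). Reads of Ifit3 may be shared with its near-identical copy Ifit3b, as may those of Oas1a with its close paralogs.

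Transcript GC content differed between the genes that rose and the 1 that fell. The 6 that rose had 51.0% to 55.8% GC, while Ifit2 had 42.0%, beside a median of 49.0% over the 37 members. The part of GC content in these differences was not tested. Samd9l, an antiviral and growth-restraining protein, had the lowest GC content of the members (38.8%). It read 173, 142, 141 and 132 CPM in WT-S and 173, 127, 59.1 and 36.999 CPM in WT-A, so WT-A replicates 3 and 4 were below all the other libraries. Its log2 difference was -0.57 with them and 0.03 without (adjusted p = 0.196 and 0.904). In the 14 libraries 3 of 37 members were called, Psmb9, Tap1 and Irf1, beside 10.4% of all genes, and 34 of 37 had higher means, with a median of 0.43.

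The number called also depended on single libraries. Leaving out WT-S replicate 1, in which many members were high, gave 14 calls, beside 19.2% of all genes. Leaving out WT-S replicate 2, 3 or 4, or WT-A replicate 3, gave 2 each, beside 8.11%, 11.6%, 10.4% and 8.23% of all genes. Leaving out WT-A replicate 1 or 2 gave 7 each, beside 32.2% and 23%, and WT-A replicate 4 gave 10, beside 14.6%. Of the 7 without WT-A replicate 1, 4 were higher in WT-A, and Gbp7, Ifit2 and Samd9l were lower. All 7 without WT-A replicate 2 were higher. The median log2 difference of the members ran from 0.15 without WT-A replicate 1 and 0.22 without WT-A replicate 3 to 0.49 without WT-A replicate 4. Psmb9 and Irf1 kept their calls in all 8 of these fits (highest adjusted p 0.0188 and 0.0369), Tap1 and Psmb8 in 4, Zbp1 in 3, and Ifi35 and Ifit2 in 2. A fit of WT-A and WT-S alone, without the spread of the TTP groups, called 1 member, Irf1 (adjusted p = 0.0405), beside 4.49% of all genes, and put Psmb9 at an adjusted p of 0.0547.

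The same comparison in the mutant, TTP-A against TTP-S, gave 0 calls among the 36 members by edgeR, beside 2.9% of all genes tested. At an unadjusted p under 0.05 there were 2 members, beside 15.9% of all genes. DESeq2 called 0, beside 5.26% of all genes. limma voom called 2 (Gbp7 and Ddx58), beside 15.2%, and an edgeR fit of these groups alone called 3 (Gbp2, Gbp3 and Gbp7), beside 8.05%. Means were higher in TTP-A for 17 of 36 members, with a median log2 difference of -0.02. The plot of both responses sets the members side by side.

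**Figure D2:**
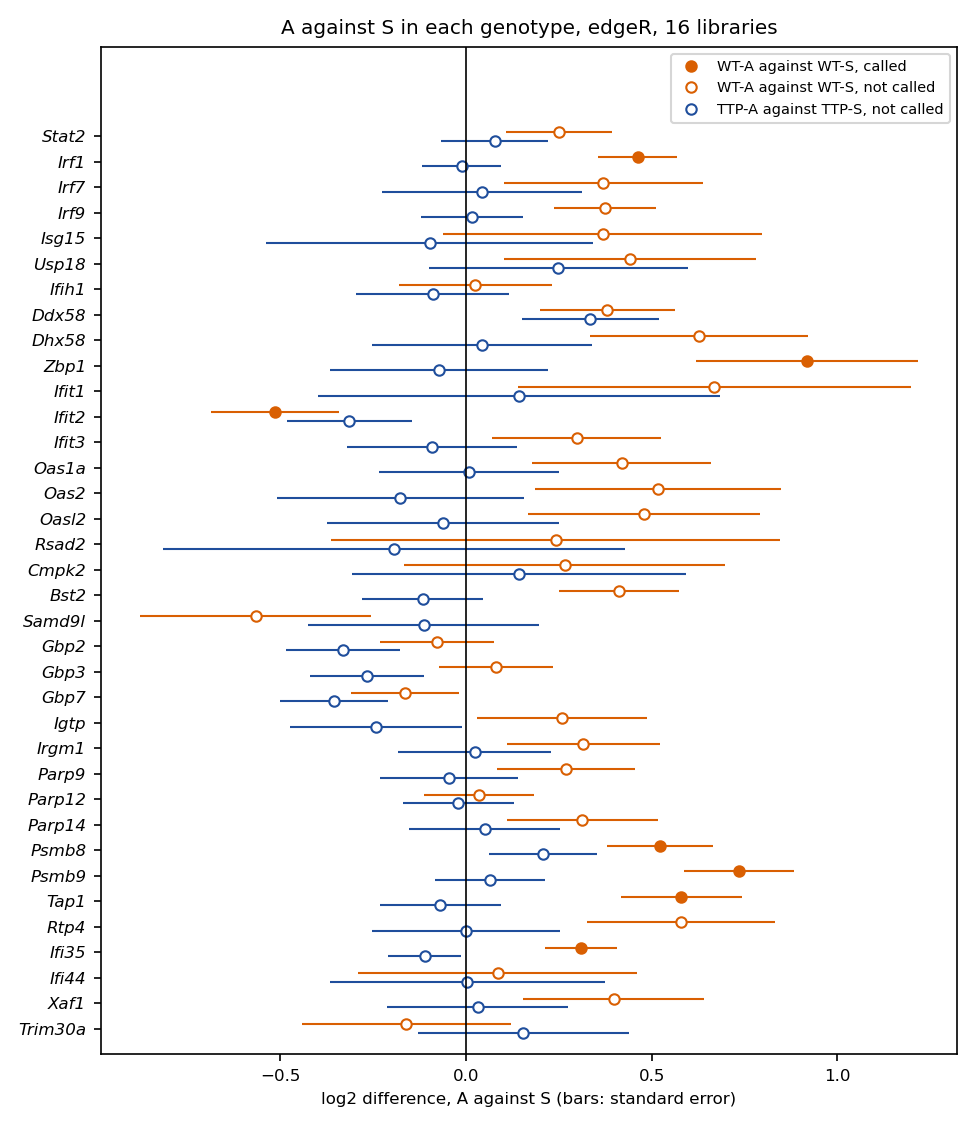
Log2 difference (horizontal axis) of each of the 36 tested members, in rows by role, for A against S in WT and in TTP, with points at the estimate and lines of 1 SE on each side. WT points lie mostly right of 0, with a median of 0.34, and TTP points lie on both sides of 0, with a median of -0.02.

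The members with the smallest p in the mutant were guanylate-binding proteins, GTPases that coat and disrupt vacuoles of intracellular microbes. Gbp7 read 17.5, 16.3, 16.2 and 17.2 CPM in TTP-S and 14.03, 11.0, 13.0 and 14.5 CPM in TTP-A, and Gbp2 read 20.9, 19.5, 21.6 and 25.3 CPM in TTP-S and 17.1, 16.7, 18.1 and 17.5 CPM in TTP-A. In both, every TTP-A library was below every TTP-S library. The log2 differences were -0.35 (SE 0.15, adjusted p = 0.227) and -0.33 (SE 0.15, adjusted p = 0.303), neither called by edgeR. Gbp3 and Ifit2 were also lower in TTP-A without overlap, which makes 4 of 36 members, beside 6.77% of all genes tested. Ifit2 read 8.99, 7.99, 7.26 and 7.38 CPM in TTP-S and 6.22, 6.23, 6.10 and 6.90 CPM in TTP-A, a log2 difference of -0.31 (SE 0.17, adjusted p = 0.396). Of the 5 GTPases, 4 had lower means in TTP-A, Irgm1 being the other (0.02), and the median was -0.27. Reads of the Gbp genes may be split among near-identical copies.

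Ddx58 differed in the other direction. It read 24.6, 27.6, 24.4 and 25.1 CPM in TTP-S and 38.5, 24.4, 29.7 and 35.8 CPM in TTP-A, where 3 of 4 libraries were above all TTP-S libraries and replicate 2 was not. The log2 difference was 0.34 (SE 0.18, adjusted p = 0.413). The antigen processing members and Irf1, called in WT, gave 0.06 for Psmb9, -0.07 for Tap1, 0.21 for Psmb8 and -0.01 for Irf1 in the mutant (adjusted p from 0.568 to 0.980).

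Whether the response differed between genotypes was tested as the genotype by treatment interaction, the TTP difference minus the WT difference. By edgeR, DESeq2 and limma voom, 0 members (of 36, 37 and 36 in the fits) were called, beside 0.0585%, 1.9% and 1.11% of all genes. By edgeR 6 members had an unadjusted p under 0.05, beside 15.2% of all genes. The smallest p were those of Psmb9 at -0.67 (SE 0.21, adjusted p = 0.181), Irf1 at -0.47 (SE 0.15, adjusted p = 0.188), Ifi35 at -0.42 (SE 0.14, adjusted p = 0.200) and Tap1 at -0.65 (SE 0.23, adjusted p = 0.225). Values above 0 were found in 3 of 36 members, and the median was -0.35, against 0.0019 over all genes tested. The calls in WT and their lack in TTP are thus not shown to differ between genotypes. Without WT-A replicate 1, the library highest in most members, the median was -0.17. In the 14 libraries 0 of 37 members were called, beside 0.295% of all genes, 0 of 37 had values above 0, and the median was -0.41.

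The genotypes were then compared within each condition. In TTP-S against WT-S, 0 members (of 36, 37 and 36 in the fits) were called by edgeR, DESeq2 or limma voom, beside 0.0325%, 0.546% and 1.14% of all genes. At an unadjusted p under 0.05 there were 2 members, beside 7.49% of all genes, and 25 of 36 had higher means in TTP-S. Zbp1 had the largest difference of these, 0.68 (SE 0.30, adjusted p = 0.628), with 3.08, 4.53, 4.15 and 4.57 CPM in TTP-S, of which replicates 1 and 3 lay inside the WT-S range. Gbp7 was the only member without overlap, since WT-S read 13.0, 15.8, 12.9 and 12.8 CPM, all below TTP-S, beside 3.5% of all genes. Its log2 difference was 0.30 (SE 0.15, adjusted p = 0.682). Ifit2 differed by 0.37 (SE 0.17, adjusted p = 0.645) and Irf1 by 0.20 (SE 0.11, adjusted p = 0.737).

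In TTP-A against WT-A, 0 of 36 members were called by edgeR and by limma voom, beside 5.17% of all genes by each, while DESeq2 called 3 (Ifit2, Tap1 and Ifi35), beside 11.2%. At an unadjusted p under 0.05 there were 7 members, beside 27.5% of all genes. Means were lower in TTP-A for 31 of 36 members, with a median log2 difference of -0.28, against -0.0033 over all genes. By limma voom with sample weights 25 were lower, with a median of -0.09, and by edgeR the median was -0.07 without WT-A replicate 1 and -0.16 without WT-A replicate 3. Ifit2 was higher in every TTP-A library than in any WT-A library, beside 5.99% of all genes, and differed by 0.57 (SE 0.17, adjusted p = 0.0613). Without WT-A replicates 3 and 4, its 2 lowest libraries, the difference was 0.28 (adjusted p = 0.342). Tap1 read 24.3, 18.9, 17.2 and 21.3 CPM in TTP-A, a log2 difference of -0.53 (SE 0.16, adjusted p = 0.0638). Ifi35 read 18.5, 15.8, 18.2 and 16.99 CPM in TTP-A, a log2 difference of -0.32 (SE 0.098, adjusted p = 0.0644), and Psmb9 differed by -0.41 (SE 0.15, adjusted p = 0.0952). Each of these 3 overlapped WT-A. Leaving out 1 library gave 3 calls without WT-A replicate 2 (beside 10.4% of all genes), 2 without WT-A replicate 1 (beside 20.7%), 1 without WT-A replicate 4 (beside 3.26%) and 0 without any other. The 3 were Ifi35, Irf1 and Tap1, all lower in TTP-A. The 2 were Ifit2 and Samd9l, both higher, and the 1 was Tap1, lower. In the 14 libraries 0 of 37 members were called, beside 1.87% of all genes, with 35 lower, a median of -0.32, and Tap1 at -0.49 (adjusted p = 0.114). Cell markers also differed in this comparison: 3 of 5 smooth muscle markers, 1 mucous neck or metaplasia marker and 1 exocrine pancreas marker were called lower in TTP-A, and 2 of 5 chief cell, 1 of 6 parietal and 1 of 4 plasmacytoid dendritic cell markers higher. All 10 squamous markers had lower means without a call. In the 14 libraries 0 smooth muscle and 0 plasmacytoid dendritic cell markers were called, and 3 chief cell and 2 parietal markers were called higher. The mucous neck or metaplasia and exocrine pancreas lists kept 1 lower call each there. In those libraries 1 T cell marker was also called higher and 1 natural killer cell marker lower, beside 1.87% of all genes. The part of these cells in the members' values was not tested. This comparison and WT-A against WT-S share the WT-A libraries.

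**Figure D3:**
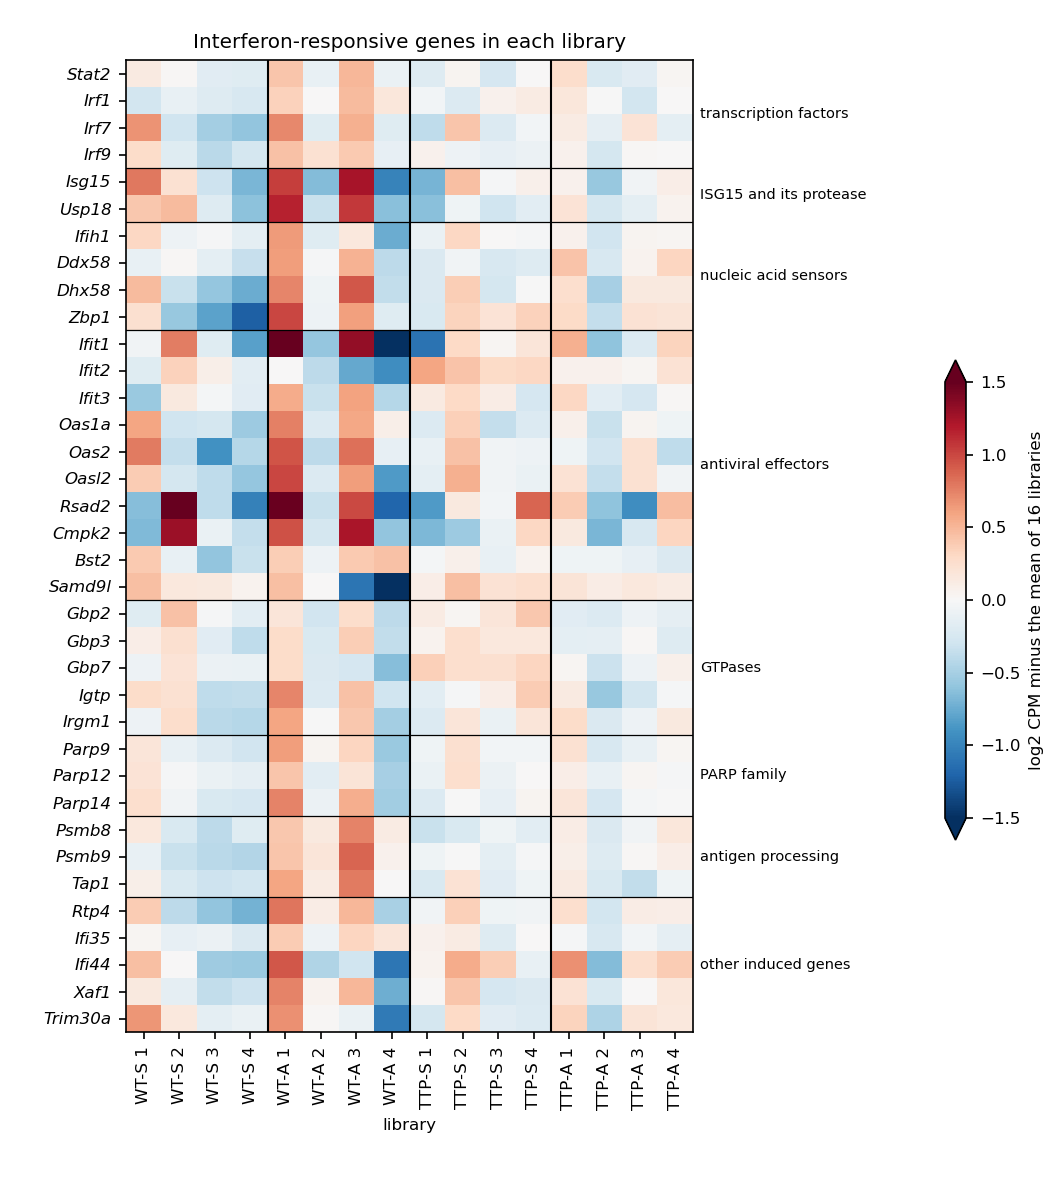
Log2 CPM of each tested member (rows, by role) in each of the 16 libraries (columns, by group), shown as the difference from the gene's mean over all libraries on a colour scale. WT-A replicates 1 and 3 are high in most rows, and WT-A replicate 4 and TTP-A replicate 2 are low in most.

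In WT-A the libraries took nearly the same order in most members. WT-A replicates 1 and 3 were both above replicates 2 and 4 in 31 of 36 members (86.1%), an order held by 8.56% of all genes tested. Replicates 3 and 4, the pair set apart by GC content, were both above the other libraries in 1 member, beside 33.4% of all genes, so the split among the members crosses that pair. Set against the WT-S mean, WT-A replicate 1 was higher in 35 members and replicate 3 in 31, whereas replicate 2 was higher in 14 and replicate 4 in 8. The median log2 ratios were 0.73, -0.12, 0.63 and -0.35 for replicates 1 to 4, while over all genes tested 48.8% to 51.7% lay above the WT-S mean in each. Replicates 1 and 3 were thus the WT-A libraries in which most members lay above WT-S. The mean log2 CPM of the members was 4.64, 3.83, 4.44 and 3.501 in WT-A replicates 1 to 4. That of the 2 tested natural killer cell markers was -0.33, -0.79, -0.13 and -0.74, so replicates 1 and 3 were above replicates 2 and 4 there too. The plasmacytoid dendritic cell markers, a list that includes the member Bst2, took this order in mean log2 CPM (3.92, 3.68, 3.76 and 3.47) but not in summed level (169, 200.4, 152 and 136 CPM), where replicate 2 was highest. The other immune lists did not take it: macrophage (3.47, 3.86, 4.14 and 3.88) and T cell markers (-0.64, -0.01, 0.36 and -0.24) were lowest in replicate 1. Neutrophil markers (2 tested) read 0.24, 1.07, 1.26 and -0.23, and B and plasma cell markers (2 tested) -0.32, -0.13, 0.25 and -0.96. The 1 tested eosinophil marker, Siglecf, read 3.02, 2.94, 2.53 and 1.76. The part of these cells in the order of the libraries was not tested.

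**Figure D4:**
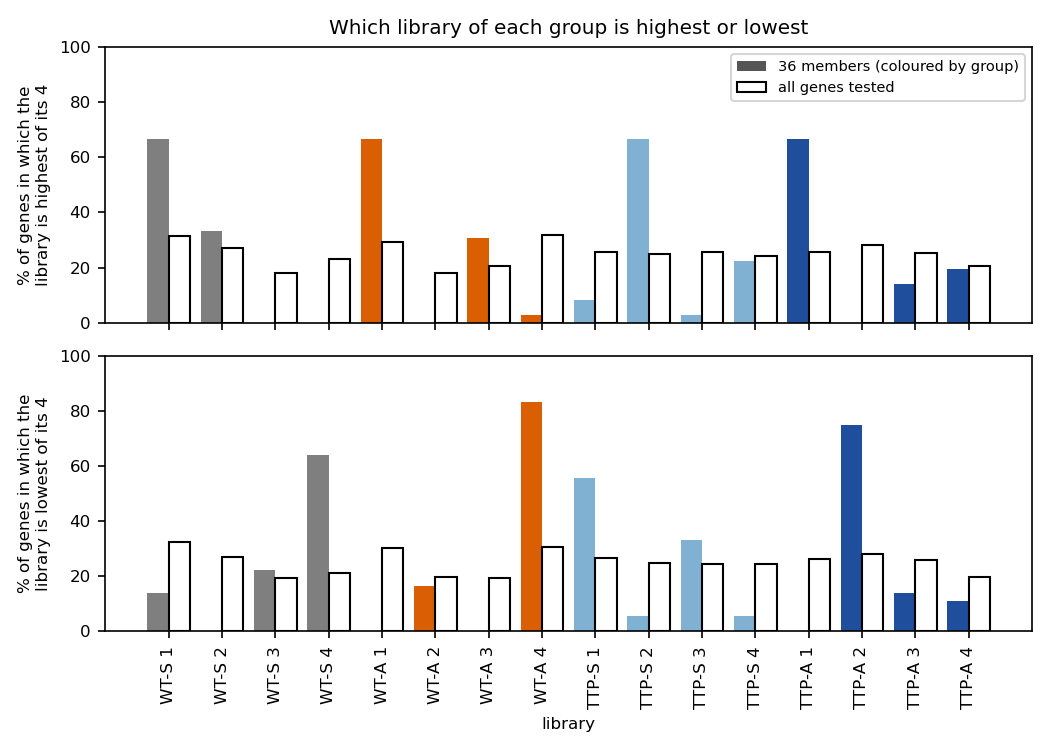
Percent of genes (vertical axis) for which each library is the highest or the lowest of its group of 4, for the 36 members and for all 15385 genes tested. TTP-A 1, TTP-S 2, WT-A 1 and WT-S 1 are each the highest of their group in 24 of 36 members.

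In the other groups the order was shared by fewer members. The commonest pair of highest libraries was replicates 1 and 2 in WT-S (26 of 36 members, 72.2%, beside 14.8% of all genes), 2 and 4 in TTP-S (18 of 36, beside 18.4% of all genes) and 1 and 4 in TTP-A (20 of 36, beside 23.8%). WT-S replicate 1 was the highest of its group in 24 of 36 members (66.7%, beside 31.6% of all genes), and replicate 2 in the remaining 12. Those 12 were Irf1, Usp18, Ddx58, Ifit1, Ifit2, Ifit3, Rsad2, Cmpk2, Gbp2, Gbp3, Gbp7 and Irgm1. TTP-S replicate 2 and TTP-A replicate 1 were each the highest in 24 members, beside 24.8% and 25.8% of all genes. WT-A replicate 4 was the lowest of its group in 30 members (83.3%, beside 30.6%) and TTP-A replicate 2 in 27 (75.0%, beside 28.2%). Of the 61 other interferon-induced genes tested, which are not among the 37, 34 were highest in WT-S replicate 1, 28 in WT-A replicate 1 and 32 in TTP-A replicate 1. In TTP-S, 25 were highest in replicate 2 and 23 in replicate 1, the library most often lowest among the members (20 of 36).

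The size of the spread was described for each group. The median SD of log2 CPM over the members was 0.30 in WT-S and 0.50 in WT-A, beside 0.12 and 0.20 over all genes tested. It was 0.20 in each TTP group, beside 0.11 (S) and 0.12 (A). A range of at least 2-fold between the lowest and the highest library was found for 21 of 36 members in WT-A and 12 in WT-S, beside 15.2% and 10.4% of all genes. It was found for 3 in TTP-S and 4 in TTP-A (8.33% and 11.1%), near the 7.79% and 9.28% of all genes. The difference in spread between groups was not tested, and samples were not regrouped by it.

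**Figure D5:**
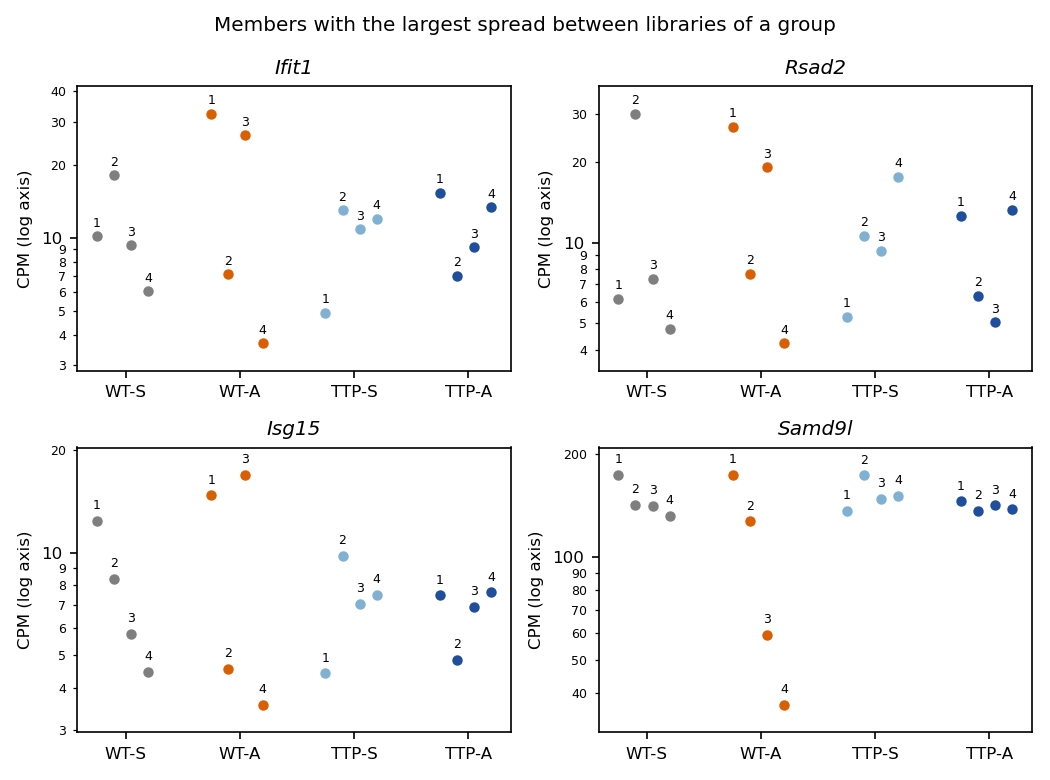
CPM on a log axis of the 4 members with the largest spread in a group (Ifit1, Rsad2, Isg15 and Samd9l), with 1 point per library. In WT-A, Ifit1, Rsad2 and Isg15 are high in replicates 1 and 3, and Samd9l is low in replicates 3 and 4.

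Ifit1, which binds viral RNA lacking host cap marks, read 10.2, 18.1, 9.33 and 6.04 CPM in WT-S and 32.4, 7.11, 26.4 and 3.70 CPM in WT-A, an 8.76-fold range within the group. In TTP-S it read 4.94, 13.0, 10.9 and 11.999 CPM and in TTP-A 15.4, 7.01, 9.17 and 13.4 CPM. WT-A replicates 1 and 3 were above all the other 14 libraries. Rsad2 encodes viperin, which makes a chain-terminating nucleotide, and its neighbour Cmpk2 encodes the kinase that supplies viperin's substrate. Rsad2 read 6.16, 30.2, 7.35 and 4.76 CPM in WT-S and 26.9, 7.62, 19.0 and 4.22 CPM in WT-A. Cmpk2 read 4.48, 17.2, 6.60 and 5.53 CPM in WT-S and 13.8, 5.93, 16.6 and 4.70 CPM in WT-A. Both were highest within WT-S in replicate 2, and within WT-A in replicates 1 and 3. The pair lies at chr12:26442743-26456452 (Rsad2) and chr12:26469117-26479837 (Cmpk2).

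Isg15, a ubiquitin-like protein that is attached to other proteins, read 12.4, 8.36, 5.77 and 4.45 CPM in WT-S and 14.7, 4.55, 16.9 and 3.57 CPM in WT-A, a 4.74-fold range. In TTP-S it read 4.42, 9.80, 7.07 and 7.52 CPM, and in TTP-A 7.49, 4.83, 6.92 and 7.64 CPM. Usp18, the protease that removes Isg15, was likewise highest in WT-A replicates 1 and 3 (13.9 and 13.1 CPM, beside 4.97 and 4.04 CPM in replicates 2 and 4). Oas2, which makes the 2-5A messenger that activates an antiviral nuclease, read 48.0, 21.8, 14.9 and 20.7 CPM in WT-S and 53.6, 21.4, 49.5 and 25.6 CPM in WT-A. Here WT-S replicate 1 lay close to the high WT-A libraries. None of Ifit1, Rsad2, Cmpk2, Isg15, Usp18 or Oas2 was called in any of the 5 comparisons by edgeR in the 16 libraries.

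The other members were not called in the 16 libraries by edgeR. Limma voom called Irf9 and Rtp4 higher in WT-A beside Irf1, Psmb8, Psmb9, Tap1 and Zbp1. The edgeR fit without WT-S replicate 1 called Bst2, Rtp4, Oas1a, Oas2, Dhx58, Irf7 and Irf9 higher. Without WT-A replicate 4 edgeR called Ddx58, Irf9, Parp9, Rtp4 and Xaf1 higher, and without WT-A replicate 2 it called Bst2 higher. Without WT-A replicate 1 it called Gbp7 and Samd9l lower. In WT-A against WT-S, Bst2 (tetherin, which holds budding virions at the membrane) differed by 0.41 (adjusted p = 0.0796), Rtp4 by 0.58 (adjusted p = 0.111), Oas1a by 0.42 (adjusted p = 0.214) and Oasl2 by 0.48 (adjusted p = 0.273). Parp9, Parp12 and Parp14, which modify proteins with ADP-ribose, differed by 0.27, 0.03 and 0.31, Igtp by 0.26, Irgm1 by 0.32, Xaf1 by 0.40, Ifi44 by 0.09 and Trim30a by -0.16. In the 14 libraries Rtp4 was at 0.77, Oasl2 at 0.69, Xaf1 at 0.59, Ifi44 at 0.50 and Parp9 at 0.46, and Trim30a turned to 0.21 (adjusted p from 0.0681 to 0.644). In TTP-A against TTP-S these 12 genes lay between -0.24 (Igtp) and 0.15 (Trim30a). Ido1 summed to 21 counts in WT-S and 15 in WT-A, and to 55 counts in TTP-S and 19 in TTP-A, and in the 14 libraries, where it could be tested, it was not called in any comparison.

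Beyond the 37, 93 of 108 other listed genes of the pathway were tested. In WT-A against WT-S 19 rose and 2 fell, beside 18.8% of all genes tested, and 17 were called in the 14 libraries, beside 10.4%. The genes named here were chosen after their values were seen. Of the other genes of MHC class I processing on the list, Tap2, the other part of the peptide transporter, rose by 0.49 (adjusted p = 0.0027) and Psmb10, the third immunoproteasome subunit, by 0.52 (adjusted p = 0.0064). Values not called were 0.15 for Tapbp, -0.14 for B2m, 0.15 for Psme1, 0.10 for Psme2 and 0.25 for Nlrc5 (adjusted p from 0.0781 to 0.545). Ciita, which turns on MHC class II genes, rose by 1.09 (adjusted p = 0.0147), and by 0.88 in the 14 libraries, where it was not called (adjusted p = 0.0666). Tap2 read 33.1, 27.0, 28.6 and 30.3 CPM in WT-S and 42.1, 39.6, 45.3 and 40.3 CPM in WT-A, without overlap. Irf5, a transcription factor of myeloid cells, rose by 0.95 (adjusted p = 0.0035), and Ifitm1, Ifitm2 and Ifitm3, which block virus entry, by 0.40, 0.48 and 0.64. The 2 that fell were Ifngr1 and Ifi203 (-0.66, adjusted p = 0.0230). Ifi203 was not called in the 14 libraries (-0.30, adjusted p = 0.151), while Ifngr1 was, and Mavs, an adaptor of the RNA sensors, was called lower (-0.20).

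Among the inhibitors of signalling, Socs1, which blocks JAK kinases, rose in both genotypes. It read 1.12, 1.02, 1.01 and 0.819 CPM in WT-S and 2.56, 1.62, 2.73 and 1.43 CPM in WT-A, and 0.972, 0.453, 0.593 and 0.541 CPM in TTP-S and 2.18, 1.40, 1.78 and 1.53 CPM in TTP-A. Every A library was above every S library of its genotype. The rises were 1.07 in WT (adjusted p = 0.0128) and 1.41 in TTP (adjusted p = 0.0167, edgeR). Socs3 rose by 0.47 and Ptpn6 by 0.23 in WT. Ifngr1 and Socs1 were the 2 pathway genes called in TTP-A against TTP-S, beside 2.9% of all genes tested. Without TTP-S replicate 2 or 4, or TTP-A replicate 1, Socs1 was not called there (adjusted p = 0.0631, 0.0658 and 0.0693).

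The remaining calls in WT-A against WT-S were Ifngr2, Irf8, Myd88, Tmem173, Slfn2, Ifi27, Oasl1, Oas1b and Tor3a, which rose by 0.29 to 0.82. In TTP-S against WT-S 0 pathway genes were called, beside 0.0325% of all genes. In TTP-A against WT-A 8 were called, beside 5.17% of all genes. Ifi203 (0.89) and Slfn5 (0.35) were higher in TTP-A, and Tap2 (-0.46), Adar (-0.25), Ptpn6 (-0.20), Ifitm2 (-0.30), Ifitm3 (-0.47) and Myd88 (-0.29) were lower. In the 14 libraries Tap2 alone of these was called (-0.42, adjusted p = 0.0418), beside 1.87% of all genes. The chemokines Cxcl9 and Cxcl10, which attract T cells and respond to Ifng, stayed between 0.329 and 1.23 CPM in all libraries and were not called in any comparison.

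Immune cell markers were counted in the same fits. In WT-A against WT-S, 3 of 8 macrophage markers rose (summed level 111 to 141 CPM in WT-S and 132 to 206 CPM in WT-A), as did 1 of the 4 tested T cell markers (3.97 to 5.32 and 3.93 to 8.08 CPM), 1 of the 2 tested natural killer cell markers (1.13 to 1.63 and 1.78 to 3.24 CPM) and both tested neutrophil markers (1.23 to 2.02 and 2.82 to 6.20 CPM). Of the 2 tested B and plasma cell markers 1 rose and 1 fell, as did 1 each of the 4 tested plasmacytoid dendritic cell markers. Of all genes tested, 18.8% were called. In TTP-A against TTP-S, where 2.9% of all genes were called, none of these 6 lists had a called marker, while Siglecf, the 1 of 5 eosinophil markers that could be tested, rose (1.22, beside 0.53 in WT, not called). The median log2 differences in TTP and WT were 0.28 and 0.27 for macrophages, 0.83 and 0.72 for T cells, 1.37 and 0.95 for natural killer cells, 0.93 and 2.19 for neutrophils, 1.12 and -0.25 for B and plasma cells and -0.07 and 0.32 for plasmacytoid dendritic cells. Summed macrophage levels were 98.2 to 138 CPM in TTP-S and 132 to 159 CPM in TTP-A. Without WT-A replicates 3 and 4 the WT macrophage median was 0.036, with 4 markers higher and 4 lower. Of the lists named here, the 14 libraries called 1 macrophage, 0 T cell, 1 natural killer cell, 1 neutrophil, 1 plasmacytoid dendritic cell and 0 B and plasma cell markers in WT, beside 10.4% of all genes. In TTP they called 1 of 5 T cell markers and Siglecf, beside 6.26%. Cd8b1, a defining marker of cytotoxic T cells, Ly6g, of neutrophils, Epx, of eosinophils, and Cox6a2, of plasmacytoid dendritic cells, had at most 3 counts in every library. The differences between genotypes in these lists, and the part of these cells in the rise of the antigen processing genes, were not tested.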

How the data were processed

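The authors deposited 1 table of whole-number read counts per gene for 16 stomach libraries. The submitters' processing notes name STAR 2.7.0f, featureCounts, Subread 1.6.4, DESeq2 and mm10. Strandedness, annotation and filters are not given in the sources used here, so overlapping or near-identical genes may share reads. No column lacked a sample, and the 24 pairs of libraries within groups all differed beyond sampling noise (chi-square per degree of freedom 4.90 to 94.7).

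Counts were analysed with edgeR 4.0.16 in R 4.3.3: filterByExpr (15385 genes kept), TMM scaling, and a quasi-likelihood model over all 16 libraries with 1 mean per group. P-values were adjusted by Benjamini-Hochberg over all genes tested, and a gene was called at an adjusted p under 0.05. CPM are counts relative to the TMM-scaled library total. The fitting code was tested on simulated data.

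The members, the pathway and marker lists, and the 14-library fit (15597 genes) were chosen with earlier results of these data known. For each comparison the members named are those called in the 16 or 14 libraries, at most 8 by p, filled up to 4 by the smallest unadjusted p. Pathway genes are named where called, with the receptors, ligands, Cxcl9 and Cxcl10. Other pathway genes are counted without being named, and the values of 1 listed gene are not reported here. Genes named for their spread within a group were taken by their SD. Cmpk2, Usp18, Oas2 and Samd9l's GC content were described after their values were seen.

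Alternatives were DESeq2 1.42.0 (size factors and Wald test), other filters on low counts, limma 3.58.1 voom with sample weights, the 2 groups alone, a replicate block, the 14 libraries and each library left out. Symbols were matched to GENCODE transcripts for GC content and to RefSeq for promoters and coordinates (GRCm38.p6, the assembly of mm10). For 30 of the 34 member windows the last 25 bases were in a transcript of the gene, and for 0 their reverse complement was.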

Additional observations from a re-analysis of the deposited data

Results flagged for a closer look

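In groups of 4 libraries, the gap from the highest or lowest library to its nearest neighbour, divided by the range of the group, exceeded Dixon's 95% critical value in 13 of 148 tests of members (37 genes in 4 groups). Chance gives about 1 in 20. The libraries of a group rank alike across members, so these tests are not independent.

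TTP-S replicate 2 was the library far above the rest in 5 cases. Oas2 read 38.0 CPM there beside 26.9 in the next library, Oasl2 79.0 beside 52.6, Parp9 38.7 beside 31.7, Rtp4 14.6 beside 11.1 and Trim30a 10.05 beside 7.26.

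WT-S replicate 2 was far above the rest in 3 cases, Rsad2 at 30.2 CPM beside 7.35, Cmpk2 at 17.2 beside 6.60 and Gbp7 at 15.8 beside 13.0. In the same group replicate 1 stood apart for Irf7, at 64.4 CPM beside 32.9. Ifit2 stood apart in TTP-A replicate 4, at 6.90 CPM beside 6.23.

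The low extremes were TTP-A replicate 2 for Ifih1 (32.4 CPM beside 40.4) and Dhx58 (7.20 beside 11.3), and WT-A replicate 2 for Bst2 (10.2 beside 13.9).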

How the results depend on the processing

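Members called in WT-A against WT-S numbered 7, and 3 in the 14 libraries, 1 in a fit of those groups alone, and 2 to 14 with 1 library left out. In TTP-A against TTP-S the 0 became 2 by limma voom and 3 in a fit of those groups alone, and stayed 0 to 0 with 1 library left out. In TTP-A against WT-A the 0 became 3 by the DESeq2 Wald test and 0 to 3 with 1 library left out. Other pathway genes called in WT-A against WT-S went from 21 to 8 in the groups alone (12 to 29 with 1 library left out, 12 without WT-A replicate 3 and 13 without WT-S replicate 4). In TTP-A against TTP-S they went from 2 to 4 by DESeq2, 7 by voom, 5 in the 14 libraries and 5 in the groups alone (1 to 4 with 1 left out). In TTP-S against WT-S they went from 0 to 1 by DESeq2 and 2 by voom. In TTP-A against WT-A they went from 8 to 13 by DESeq2, 4 by voom, 1 in the 14 libraries and 0 in the groups alone (0 to 15 with 1 left out). The causes of these moves were not tested.

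With 1 library left out, the median log2 difference of the members ran from 0.15 to 0.49 in WT, -0.12 to 0.05 in TTP, 0.03 to 0.22 in TTP-S against WT-S, -0.39 to -0.07 in TTP-A against WT-A and -0.46 to -0.17 for the interaction. Zfp36 ran from 0.93 to 1.01 in S and 0.71 to 0.89 in A, and in the groups alone its difference in A was 0.77 (adjusted p = 0.0535).

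Replicate numbers did not pair the libraries (correlations of same-numbered deviations -0.42 to 0.33). With the replicate block 8 members were called in WT-A against WT-S and 0 in the other comparisons, and 21 pathway genes in WT.

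Ido1 and the 11 listed interferon ligands did not pass the low-count filter in the 16 libraries and were not tested there.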
